A study of Arabidopsis thaliana with 4 samples.

Results

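The 2 libraries numbered replicate 2, 1 from Col-0 and 1 from *35S-COLDAIR*, were compared with the 2 libraries numbered replicate 1, gene by gene within each genotype. The comparison asks which transcripts differed between the replicate sets in the same direction in both genotypes, and so describes the variation that both genotypes shared. All 4 libraries of the study entered it, and 19015 of the 33854 genes listed had a mean level of at least 1 FPKM, a count of fragments scaled for transcript length and library size, over the 4 libraries and were tested. At the edge of this filter, AT5G39520 lay just inside at a mean of 1.00047 FPKM and AT3G45880 just outside at 0.999723 FPKM. A difference is given throughout as log2(FPKM + 1) in replicate 2 minus replicate 1, so a positive value means a higher level in replicate 2, and a scale that adds 1 FPKM understates the change of low genes. Paired levels are printed in the order replicate 1, replicate 2.

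Both genotypes were *Arabidopsis thaliana* of the Col-0 accession, raised on Murashige and Skoog medium at 22 °C under 16 h light and 8 h dark and taken as whole seedlings at 12 days of age for poly-A RNA. Col-0 was the untransformed wild type. The *35S-COLDAIR* plants carried *COLDAIR*, a long non-coding RNA from the first intron of the flowering repressor gene *FLC*, under the constitutive *35S* promoter of cauliflower mosaic virus, and those sequenced came from 1 line, *35S-COLDAIR* #3, so line and transgene cannot be told apart. The labels give neither an hour of harvest nor whether the replicates were separate cultures. The spread among these 4 libraries may therefore be technical. The p-values printed below set a difference against how far the genotypes disagreed on it, a spread that is shared among genes. They hold no estimate of how much 1 set of replicates varies from another. Each replicate number also had its own table of values, so the replicate number, the table, the hour, the plates and the handling cannot be told apart. Replicate numbers follow the column names. The names of the tables carry the opposite numbers, and under those every difference below would have the opposite sign.

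The 4 libraries resembled one another in general composition. They had between 22411 and 22623 genes above 0, and FPKM values that summed to between 928299.1 and 951939.8. The number of reads is not in the tables. If both tables were scaled alike, the most common ratio among genes of very low level would give a relative depth. It would put replicate 2 at 1.05 times replicate 1 in Col-0 and 1.09 times in *35S-COLDAIR*. A different scaling of the tables would also shift this ratio, so the depth itself stays unknown. *FLC* stood at 2.05 and 1.13 FPKM for Col-0, with 43.4 and 37.6 FPKM for *35S-COLDAIR*, which matches the genotype labels in every library. All 5 leaf markers were abundant, summing to between 49524 and 54795 FPKM, and the 11 root markers summed to between 74.0 and 88.4 FPKM. No leaf or root marker passed the threshold. The 6 seed markers summed to 37.8 and 8.58 FPKM for Col-0 and 16.1 and 16.0 FPKM for *35S-COLDAIR*, so 1 library, Col-0 replicate 1, was high. A fit without that library, which also did without the genotype as a block, is described below. Bulk RNA cannot tell fewer cells of a kind from less RNA per cell.

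The plant circadian clock is a loop of transcription factors that repress one another in turn over the day. The MYB factors *CCA1* and *LHY* peak around dawn and repress evening genes through a promoter sequence called the evening element, PRR proteins follow through the day, and the evening complex of *LUX*, *ELF4* and *ELF3* acts around dusk and at night. Through these factors and the light-labile PIF proteins, which bind G-box sequences, the hour of the day reaches genes for growth, starch use and mineral uptake.

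Most genes differed little between the replicates. The median difference was -0.00289 in Col-0 and -0.0110 in *35S-COLDAIR*, and 86.6% of the tested genes lay within 0.5 of 0 in both genotypes. Past a limma threshold of 0.05 (Benjamini-Hochberg over 19015 genes, genotype as a block), 422 genes were higher in replicate 2 (2.22% of those tested) and 394 were lower (2.07%). The median difference of these genes was 0.69 among the higher and -0.64 among the lower ones. Before adjustment, 3543 genes (18.6%) had a p under 0.05. A smaller set differed by at least 2-fold, that is by 1 on the log2 scale, in both genotypes at once, and 83 of these were higher in replicate 2 (0.436%) and 49 lower (0.258%), against 15 that were at least 2-fold apart in opposite directions. Among genes listed above 0 in all 4 libraries these counts were 73, 43 and 5. These shares of 2.22% and 2.07% are the background for the calls of every list below. In 22.8% of the tested genes both replicate 2 libraries were above both replicate 1 libraries, and in 25.2% both were below.

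**Figure D1:**
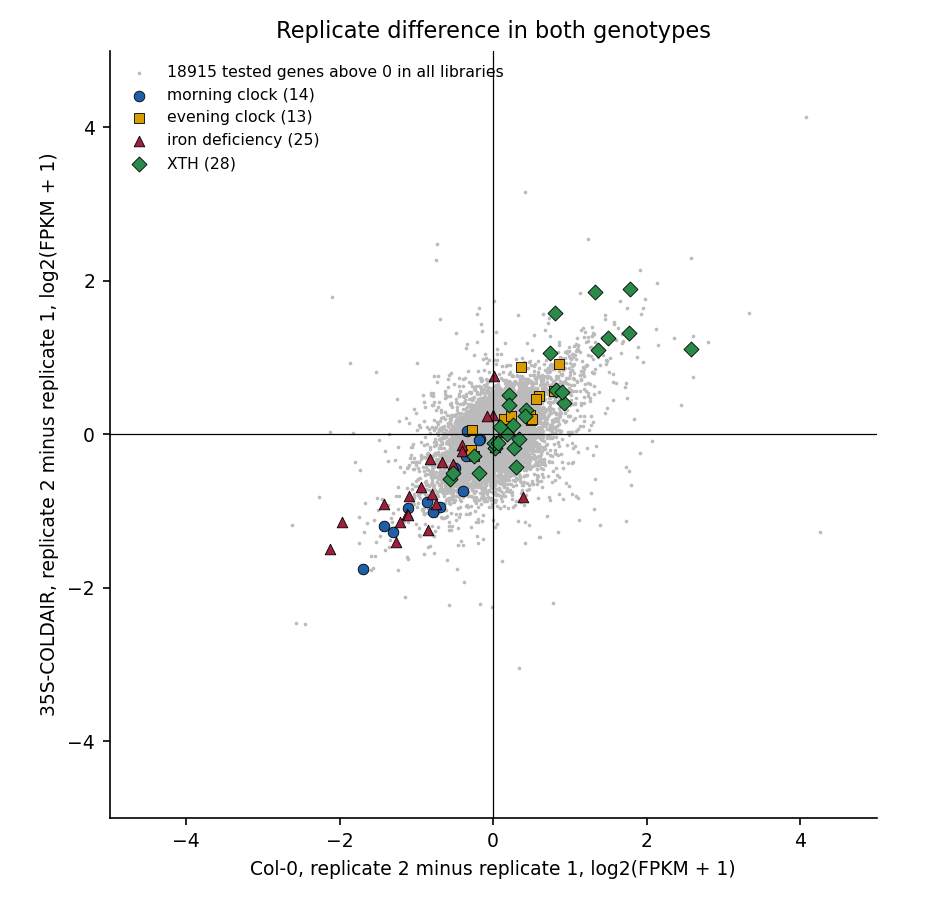
Difference between replicates, log2(FPKM + 1) in replicate 2 minus replicate 1, in Col-0 (horizontal axis) against *35S-COLDAIR* (vertical axis) for the 18915 tested genes listed above 0 in all 4 libraries, with 4 gene lists coloured. Most morning clock and iron deficiency genes lie at lower left, evening clock and XTH genes mostly at upper right, and the bulk of the genes lie around 0.

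Across the 19015 genes the differences in Col-0 and in *35S-COLDAIR* had a Pearson r of 0.397 and a Spearman rho of 0.395. The value describes these 4 libraries only, since genes are not independent replicates and both libraries of a number come from the same table. With the 100 genes listed at 0 in some library left out, r was 0.499. The counts of genes past the threshold depended on the fit. With 1 residual degree of freedom per gene the test leans on the spread shared among genes of like level, and 3 genes passed without that trend, 41 when genes of low level were kept, and 178 without the genotype block. When *35S-COLDAIR* replicate 1 was left out, 241 genes passed, and when Col-0 replicate 1, Col-0 replicate 2 or *35S-COLDAIR* replicate 2 was left out, 12, 2 and 3 passed. The fits without 1 library also had no genotype block. Calls on single genes below are those of the fit with trend and block. For part of these genes the values in the 4 libraries are given as well.

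Most morning genes of the clock were lower in replicate 2. Of 14 members of the list, all tested, 8 were lower past the threshold and none higher, beside 2.07% and 2.22% of all genes, and the median difference was -0.70, beside -0.01 over all tested genes. In 12 of the 14, both replicate 2 libraries were below both replicate 1 libraries, beside 25.2% of all genes. *RVE1*, a MYB factor that ties the clock to auxin synthesis, stood at 21.7 and 5.98 FPKM for Col-0, with 18.1 and 4.66 FPKM for *35S-COLDAIR*. Both genotypes had the high level in replicate 1, and the replicate groups were far apart. Its difference was -1.73 (standard error 0.09, limma adjusted p = 0.00603).

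*PRR9*, a daytime repressor of *CCA1* and *LHY*, stood at 26.2 and 9.12 FPKM for Col-0, with 21.7 and 8.87 FPKM for *35S-COLDAIR*, in the same order of replicates. *LNK3*, a relative of the LNK coactivators of the clock MYB factors, stood at 57.3 and 22.6 FPKM for Col-0, with 42.6 and 17.1 FPKM for *35S-COLDAIR*. In both genes the genotypes moved alike and the replicate groups did not overlap, with differences of -1.31 (standard error 0.10, limma adjusted p = 0.0092) for *PRR9* and -1.29 (standard error 0.07, limma adjusted p = 0.00603) for *LNK3*.

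*CCA1* stood at 51.6 and 27.8 FPKM for Col-0, with 44.3 and 23.6 FPKM for *35S-COLDAIR*, a difference of -0.87 (standard error 0.07, limma adjusted p = 0.00961). Its close partner *LHY* stood at 16.6 and 7.11 FPKM for Col-0, with 10.0 and 4.68 FPKM for *35S-COLDAIR*, a difference of -1.04 (standard error 0.10, limma adjusted p = 0.0144). Replicate 1 was again the higher one in both genotypes and for both genes. The other called members were *RVE7* at -0.90, *RVE8* at -0.82 and *LNK2* at -0.46.

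The remaining 6 members did not pass the threshold. *LNK1* was at -0.57 (limma adjusted p = 0.0501), AT5G52660 at -0.32, *RVE2* at -0.15, *LNK4* at -0.13 and *RVE4* at -0.12. *PRR7*, whose level peaks later in the day than that of *PRR9*, was the only member above 0. It stood at 77.6 and 85.2 FPKM for Col-0, with 79.1 and 87.4 FPKM for *35S-COLDAIR*, a difference of 0.14 (standard error 0.06, limma adjusted p = 0.299).

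The calls among the evening genes of the clock lay on the other side. Of 13 members, all tested, 4 were higher past the threshold and none lower, beside 2.22% and 2.07% of all genes, and the median difference was 0.35. Both replicate 2 libraries were above both replicate 1 libraries in 10 of the 13, beside 22.8% of all genes. *FKF1*, a blue light receptor that marks CDF repressors for degradation, stood at 2.63 and 5.57 FPKM for Col-0, with 3.13 and 6.81 FPKM for *35S-COLDAIR*. Both replicate 2 libraries were above both replicate 1 libraries, and the difference was 0.89 (standard error 0.13, limma adjusted p = 0.0298).

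*LUX*, the DNA-binding member of the evening complex, stood at 9.38 and 17.0 FPKM for Col-0, with 15.1 and 22.8 FPKM for *35S-COLDAIR*, a difference of 0.68 (standard error 0.09, limma adjusted p = 0.029). Its level was higher in *35S-COLDAIR* than in Col-0 in each replicate, so that replicate 1 of *35S-COLDAIR* came close to replicate 2 of Col-0. *PRR5* stood at 11.1 and 17.3 FPKM for Col-0, with 16.1 and 23.1 FPKM for *35S-COLDAIR*, a difference of 0.55 (limma adjusted p = 0.0342). *ELF4*, another evening complex member, was 0.51 higher (limma adjusted p = 0.0423).

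The central evening genes *TOC1* and *GI* did not pass. *TOC1*, which represses morning genes, stood at 13.3 and 18.9 FPKM for Col-0, with 16.9 and 20.2 FPKM for *35S-COLDAIR*, a difference of 0.36 (limma adjusted p = 0.12). *GI*, a partner of FKF1, stood at 18.7 and 26.6 FPKM for Col-0, with 24.8 and 28.5 FPKM for *35S-COLDAIR*, a difference of 0.34 (limma adjusted p = 0.153). In both genes the Col-0 difference was the larger one. Below 0 lay *ZTL* at -0.26, *LKP2* at -0.24 and *JMJ30* at -0.11, none past the threshold.

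**Figure D2:**
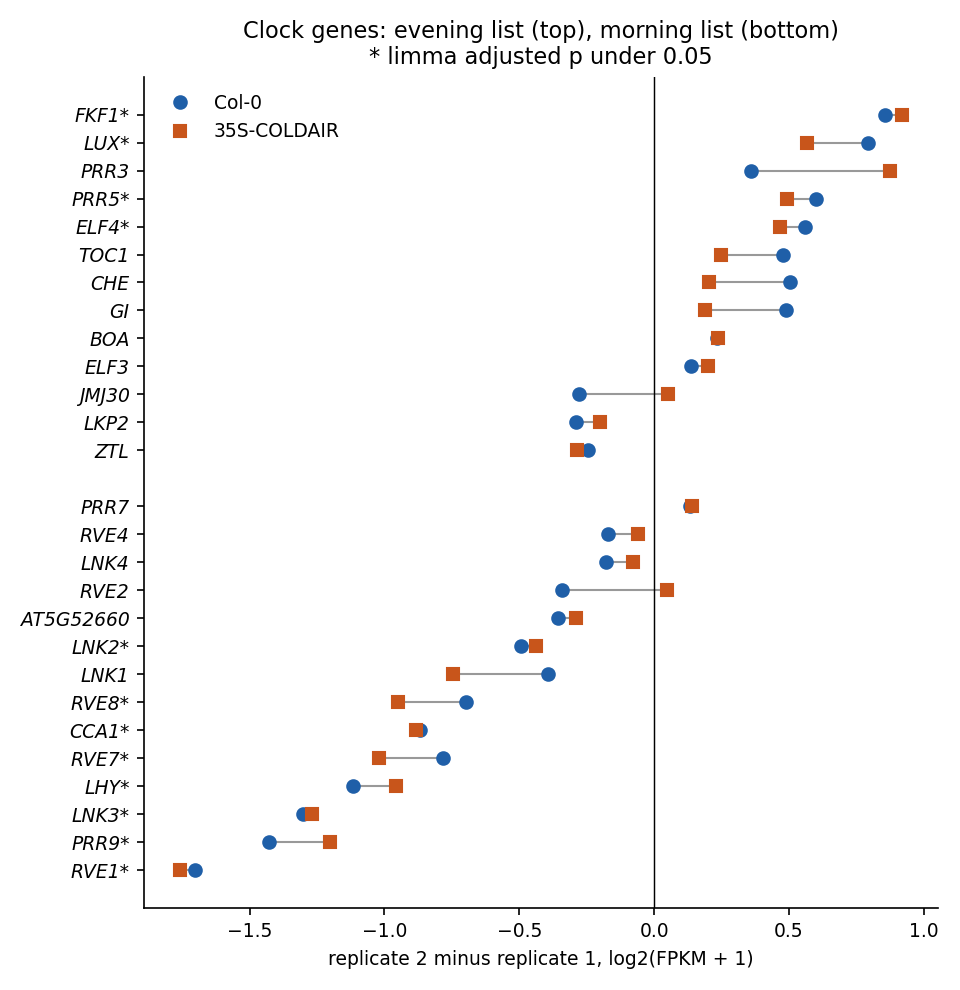
Difference between replicates for the 13 evening and the 14 morning clock genes, log2(FPKM + 1) in replicate 2 minus replicate 1, with a circle for Col-0, a square for *35S-COLDAIR* and a line joining them. The called morning genes lie between -0.46 and -1.73 on the mean of both genotypes, the called evening genes between 0.51 and 0.89, and the symbols of a called gene lie close together.

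The upstream sequences of clock genes are shown for the 6 morning genes of the largest difference and for 3 of the 4 evening genes past the threshold, since factors of the clock bind the motifs marked in them. Each stretch is the 250 bases before the annotated gene start, 5′ to 3′ on the strand of the gene, from the TAIR10.1 assembly of RefSeq, with G-boxes (CACGTG) and evening elements (AAAATATCT or its reverse complement) in capitals. The genes lower in replicate 2 are *RVE1* at chr5:5692993-5693242 (minus strand), *PRR9* at chr2:19232357-19232606 (plus strand), *LNK3* at chr3:3923265-3923514 (plus strand), *LHY* at chr1:37872-38121 (minus strand), *RVE7* at chr1:6308244-6308493 (minus strand) and *CCA1* at chr2:19245341-19245590 (plus strand). Counted from the gene start, their G-boxes begin at -111 in *RVE1*, -244 and -172 in *PRR9*, -171 and -141 in *LNK3*, -80 in *LHY* and -193 in *CCA1*. The *RVE7* stretch holds no G-box and has an evening element at -50, and *PRR9* has one just past the stretch, at base 27 of the gene.
RVE1: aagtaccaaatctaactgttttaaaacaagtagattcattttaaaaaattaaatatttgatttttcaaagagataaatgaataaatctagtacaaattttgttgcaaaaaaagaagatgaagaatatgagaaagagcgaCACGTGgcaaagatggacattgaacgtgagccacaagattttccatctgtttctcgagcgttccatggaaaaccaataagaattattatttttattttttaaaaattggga
PRR9: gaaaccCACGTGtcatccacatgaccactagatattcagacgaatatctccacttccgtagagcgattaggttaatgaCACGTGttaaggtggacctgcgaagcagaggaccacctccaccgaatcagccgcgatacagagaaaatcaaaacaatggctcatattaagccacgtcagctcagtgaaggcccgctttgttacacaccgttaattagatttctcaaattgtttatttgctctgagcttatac
LNK3: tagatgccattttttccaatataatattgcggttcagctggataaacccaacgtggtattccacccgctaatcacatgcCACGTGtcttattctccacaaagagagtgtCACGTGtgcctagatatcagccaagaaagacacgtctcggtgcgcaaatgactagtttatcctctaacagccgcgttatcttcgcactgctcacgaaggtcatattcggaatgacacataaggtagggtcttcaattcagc
LHY: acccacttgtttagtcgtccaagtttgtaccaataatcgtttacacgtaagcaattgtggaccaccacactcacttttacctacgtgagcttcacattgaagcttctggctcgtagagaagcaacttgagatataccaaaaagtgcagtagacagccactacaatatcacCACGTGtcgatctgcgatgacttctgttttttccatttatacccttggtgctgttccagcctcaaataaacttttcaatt
RVE7: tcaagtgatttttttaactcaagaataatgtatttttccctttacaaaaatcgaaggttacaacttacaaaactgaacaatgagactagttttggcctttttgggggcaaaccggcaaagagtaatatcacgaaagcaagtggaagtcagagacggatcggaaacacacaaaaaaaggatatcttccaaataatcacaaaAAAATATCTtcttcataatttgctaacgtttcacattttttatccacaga
CCA1: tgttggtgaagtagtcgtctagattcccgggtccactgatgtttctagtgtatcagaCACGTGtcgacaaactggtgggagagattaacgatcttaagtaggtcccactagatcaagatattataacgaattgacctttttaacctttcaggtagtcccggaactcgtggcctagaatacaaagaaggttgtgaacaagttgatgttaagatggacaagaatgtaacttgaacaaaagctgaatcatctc

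The genes higher in replicate 2 are *FKF1* at chr1:25508389-25508638 (plus strand), *LUX* at chr3:17182792-17183041 (plus strand) and *PRR5* at chr5:8358547-8358796 (minus strand). Evening elements begin at -186 in *FKF1*, -53 in *LUX* and -187 in *PRR5*. *FKF1* has another just past the stretch, at base 1 of the gene. The *LUX* stretch also holds a G-box, at -193.
FKF1: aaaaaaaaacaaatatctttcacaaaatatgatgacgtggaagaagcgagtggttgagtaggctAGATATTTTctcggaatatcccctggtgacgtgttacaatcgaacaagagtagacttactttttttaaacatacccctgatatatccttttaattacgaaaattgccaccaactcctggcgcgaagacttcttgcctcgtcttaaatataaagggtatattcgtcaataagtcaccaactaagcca
LUX: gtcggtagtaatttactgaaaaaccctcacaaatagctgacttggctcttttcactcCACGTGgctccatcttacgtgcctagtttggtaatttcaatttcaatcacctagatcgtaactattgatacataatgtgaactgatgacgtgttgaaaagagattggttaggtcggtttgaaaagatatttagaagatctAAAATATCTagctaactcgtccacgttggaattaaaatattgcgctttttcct
PRR5: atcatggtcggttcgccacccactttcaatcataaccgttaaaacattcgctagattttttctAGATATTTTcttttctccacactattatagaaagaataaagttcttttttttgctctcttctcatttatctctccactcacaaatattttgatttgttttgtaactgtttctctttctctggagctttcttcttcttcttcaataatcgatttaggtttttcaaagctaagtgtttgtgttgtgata

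Motif shares were counted on both strands in a window from 250 bases before to 50 bases after the start. The G-box occurred in 10 of the 14 morning genes (71.4%), in 2 of the 13 evening genes (15.4%), in 8.91% of the 18955 tested genes with a window and in 6.46% of all 37897 windows of the reference. The evening element occurred in 6 of the 13 evening genes (46.2%), in 2 of the 14 morning genes (14.3%), in 7 of 16 clock output genes (43.8%), a list with more lower than higher calls described below, in 3.05% of the tested genes and in 2.49% of all windows. Among all genes past the threshold the evening element was present in 7.62% of the higher and 4.87% of the lower genes, and the G-box in 10.0% and 12.6%. The motif CACATG, which PIF proteins also bind, was present in 19.5% of the higher, 21.3% of the lower and 12.8% of the tested genes. Fewer called genes held the telo box AAACCCT (7.14% of the higher, 4.10% of the lower, 9.26% of the tested genes) or the element ATGGGCC (2.38%, 2.82% and 10.3%), both common in genes for protein synthesis. The motif AAAAATCT, bound by CCA1, was in 7.86% of the higher, 7.18% of the lower and 8.14% of the tested genes, and the phosphate motif GNATATNC in 9.29%, 7.18% and 6.2%. Matches of the evening element, the G-box and CACATG cannot overlap one another, since none of them ends with the letters another begins with. A match is a description of the letters and not a site of binding.

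Genes downstream of the clock differed in both directions. Of 18 output genes, 16 were tested, with 8 lower and 2 higher past the threshold, beside 2.07% and 2.22% of all genes, and a median difference of -0.56. *BBX18*, a B-box protein of light signalling, stood at 27.8 and 8.96 FPKM for Col-0, with 21.0 and 7.34 FPKM for *35S-COLDAIR*. Both genotypes were high in replicate 1, a difference of -1.47 (standard error 0.09, limma adjusted p = 0.00603). Other B-box genes followed, with *COL2* at -1.28, *STH* at -1.10, *BBX19* at -0.85 and *STO* at -0.47, all past the threshold.

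The repressors of photoperiodic flowering *CDF1*, *CDF2* and *CDF3* were lower as well, at -0.97, -0.89 and -0.85. *CDF1* stood at 37.8 and 18.0 FPKM for Col-0, with 30.7 and 15.9 FPKM for *35S-COLDAIR*. On the other side, *COR27*, a clock- and cold-regulated gene, stood at 0.528 and 2.38 FPKM for Col-0, with 0.539 and 2.97 FPKM for *35S-COLDAIR*. Replicate 2 was high in both genotypes, a difference of 1.26 (standard error 0.20, limma adjusted p = 0.0401). *GRP7*, an RNA-binding protein under clock control, stood at 359 and 540 FPKM for Col-0, with 370 and 640 FPKM for *35S-COLDAIR*, a difference of 0.69 (limma adjusted p = 0.0141).

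Genes of light perception and flavonoid synthesis moved less. Of 27 members 24 were tested, 3 were lower and none higher, beside 2.07% and 2.22% of all genes. The median was -0.23, with -0.08 in Col-0 and -0.42 in *35S-COLDAIR*. The 3 were *SPA3* at -1.03, *SPA4* at -0.73 and *SPA1* at -0.50, which encode partners of the photomorphogenesis repressor COP1. *SPA3* stood at 19.0 and 9.79 FPKM for Col-0, with 18.9 and 7.83 FPKM for *35S-COLDAIR*, nearly equal between the genotypes in replicate 1. *HY5*, the transcription factor that promotes photomorphogenesis, was at -0.22 (limma adjusted p = 0.373). No photosynthesis gene passed among 42 tested, with a median of -0.08, although both replicate 2 libraries were below both replicate 1 libraries in 26 of the 42, beside 25.2% of all genes. *CAB1*, for a chlorophyll-binding protein, was at -0.12 and *RBCS1A*, for the small subunit of Rubisco, at -0.07.

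Part of the shade pathway was higher in replicate 2. All 23 members of the list of PIF factors and shade-induced genes were tested, 9 were higher past the threshold and none lower, beside 2.22% and 2.07% of all genes, 5 were below 0, and the median was 0.49. The 9 include *XTH15* and *IAA19*, which are counted again in the XTH and the Aux/IAA list below. The PIF transcripts themselves were not among the 9. *PIF4* stood at 120 and 120 FPKM for Col-0, with 120 and 122 FPKM for *35S-COLDAIR*, a difference of 0.01 with a standard error of 0.06. *PIF5* stood at 123 and 104 FPKM for Col-0, with 117 and 97.7 FPKM for *35S-COLDAIR*, a difference of -0.25 (limma adjusted p = 0.0891).

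*PAR2*, a shade-induced inhibitor of the shade response, stood at 21.3 and 46.4 FPKM for Col-0, with 23.1 and 50.2 FPKM for *35S-COLDAIR*. The genotypes were nearly alike in each replicate and the replicates well apart, a difference of 1.09 (standard error 0.07, limma adjusted p = 0.00666). *PAR1*, its close relative, was 1.22 higher. *YUC9*, an enzyme of auxin synthesis, stood at 2.56 and 8.21 FPKM for Col-0, with 3.12 and 7.29 FPKM for *35S-COLDAIR*, and *CKX5*, which degrades cytokinin, stood at 1.04 and 4.31 FPKM, with 1.31 and 3.88 FPKM for *35S-COLDAIR*. Both were higher in both replicate 2 libraries, by 1.19 and 1.23. The homeodomain genes *HAT1*, *HB2* and *HAT2* were higher by 0.89, 0.82 and 0.43. *HB4*, of the same family, was at 1.69 FPKM in Col-0 replicate 1 and between 7.91 and 15.3 FPKM in the other 3 libraries, and its difference of 1.68 did not pass (limma adjusted p = 0.115).

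The XTH and expansin families of wall proteins had most of their calls in opposite directions. The XTH enzymes cut and rejoin xyloglucan, the polymer that tethers cellulose in the growing wall. Of 33 members 28 were tested, 8 were higher and 2 lower past the threshold, beside 2.22% and 2.07% of all genes, the median was 0.31, and 6 were at least 2-fold higher in both genotypes, beside 0.436% of all genes. *XTH9* stood at 104 and 356 FPKM for Col-0, with 163 and 407 FPKM for *35S-COLDAIR*, with both replicate 2 libraries above both replicate 1 libraries. Its difference was 1.54 (standard error 0.11, limma adjusted p = 0.0092).

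*XTH33* stood at 0.576 and 4.42 FPKM for Col-0, with 0.691 and 5.30 FPKM for *35S-COLDAIR*, a difference of 1.84 (limma adjusted p = 0.0128). *XTH15*, *XTH16* and *XTH25* were higher by 1.59, 1.38 and 1.23. *TCH4*, a touch- and brassinosteroid-induced XTH, had the largest difference of the list at 1.85. It stood at 62.6 and 381 FPKM for Col-0, with 208 and 449 FPKM for *35S-COLDAIR*, so Col-0 replicate 1 stood lowest, and it missed the threshold (limma adjusted p = 0.0529). With the columns centred or quantile normalized it passed (0.0318 and 0.0284). The lower members were *XTH32* at -0.58 and *XTH31* at -0.51.

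*EXLA1*, an expansin-like wall protein, stood at 3.86 and 27.9 FPKM for Col-0, with 8.48 and 45.5 FPKM for *35S-COLDAIR*. Replicate 2 was several times higher in both genotypes, a difference of 2.43 (standard error 0.10, limma adjusted p = 0.00526). *EXO*, a brassinosteroid-responsive extracellular protein of the EXORDIUM family, stood at 41.8 and 260 FPKM for Col-0, with 125 and 305 FPKM for *35S-COLDAIR*, a difference of 1.94 (standard error 0.30, limma adjusted p = 0.0362). Its relative *EXL5* stood at 21.5 and 114 FPKM, with 54.8 and 132 FPKM for *35S-COLDAIR*, and *LRX3*, a leucine-rich repeat extensin, at 18.1 and 83.5 FPKM, with 47.0 and 107 FPKM for *35S-COLDAIR*. As with *TCH4*, Col-0 replicate 1 was the lowest library in all 3, and the Col-0 difference exceeded that of *35S-COLDAIR*. *PATL2*, a lipid-binding protein of membrane traffic, differed by 1.69 and more evenly, at 21.5 and 74.5 FPKM for Col-0, with 28.4 and 90.9 FPKM for *35S-COLDAIR*.

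Further wall genes were seen among those at least 2-fold apart in both genotypes, belong to no list, and were chosen after their values were known. *FLA9*, a fasciclin-like arabinogalactan protein, stood at 57.0 and 178 FPKM for Col-0, with 75.4 and 199 FPKM for *35S-COLDAIR*. The others were *EXLA2* (1.46), *EXL3* (1.38), the arabinogalactan protein gene *AGP7* (1.23), the galactan synthase gene *GALS1* (1.21) and the xylosidase genes *XYL4* (1.10) and *BXL2* (1.05), each past the threshold, together with the galacturonosyltransferase gene *GATL6* (1.51) and AT5G62360 (1.28), of an invertase and pectin methylesterase inhibitor family. On the lower side were the pectin lyase-like genes AT1G60590 (-1.41) and AT1G48100 (-1.21). *ACS8*, an enzyme of ethylene synthesis, was 1.52 higher.

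The expansins proper, which loosen the wall without cutting it, went the other way. Of 30 members 18 were tested, 6 were lower and none higher, beside 2.07% and 2.22% of all genes, and the median was -0.20. *EXPA8* stood at 183 and 62.6 FPKM for Col-0, with 117 and 38.2 FPKM for *35S-COLDAIR*, the highest library being Col-0 replicate 1. Its difference was -1.56 (standard error 0.06, limma adjusted p = 0.00459). *EXPA1* stood at 218 and 112 FPKM, with 164 and 103 FPKM for *35S-COLDAIR*, a difference of -0.81, and *EXPB1*, *EXPB3*, *EXPA6* and *EXPA15* were lower, at -0.47 to -0.71.

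**Figure D3:**
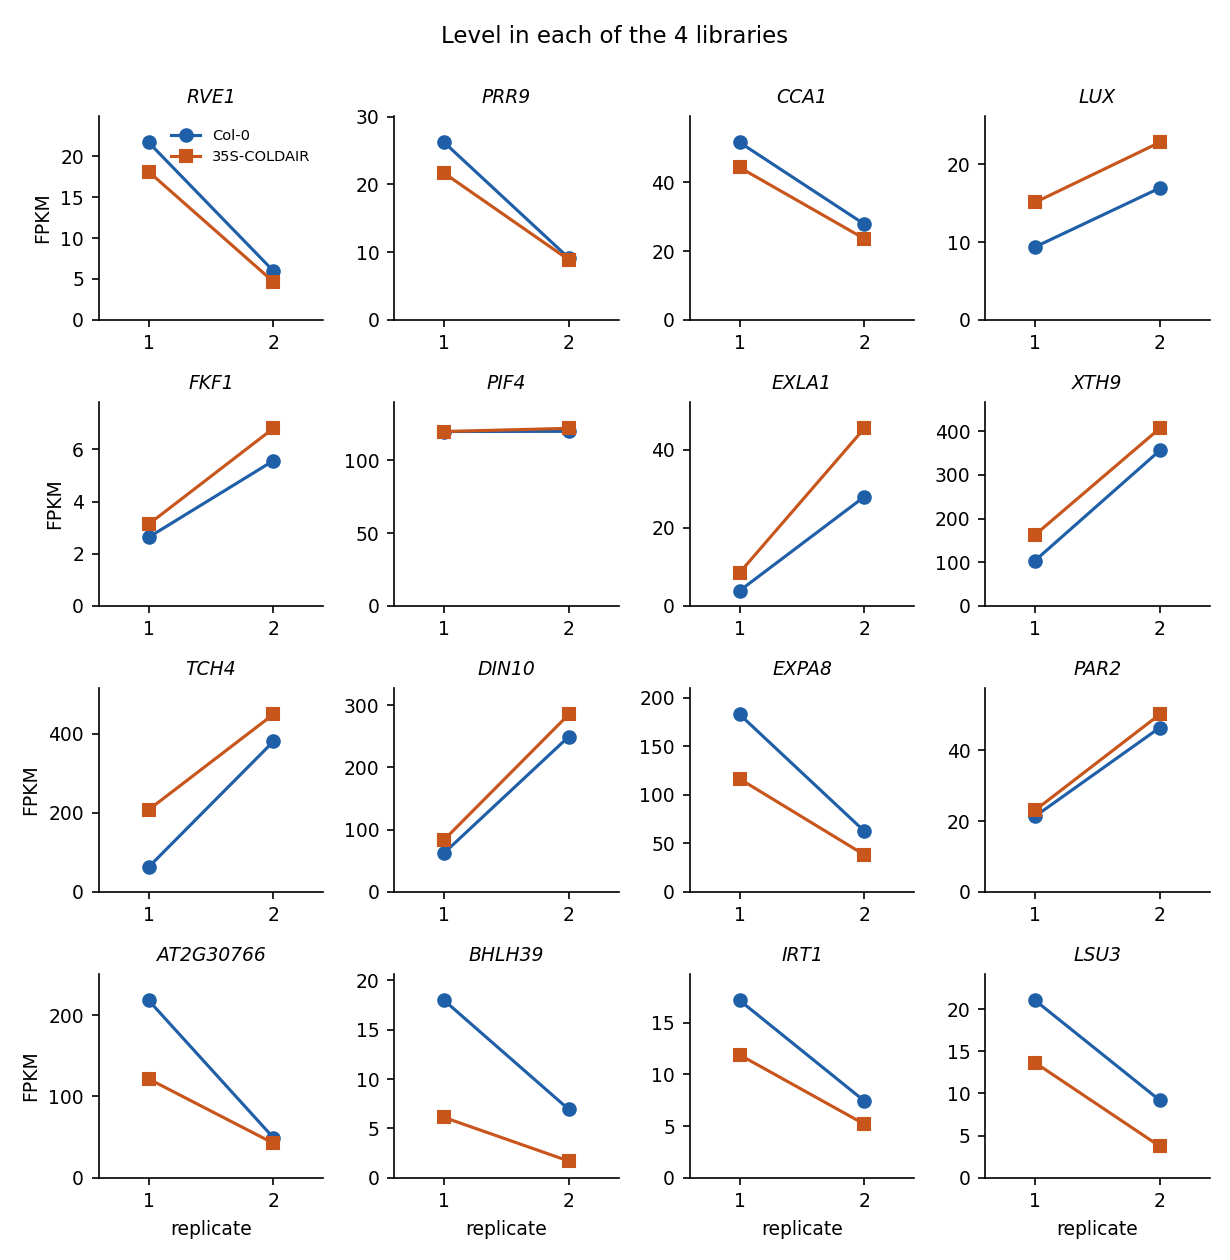
FPKM in each of the 4 libraries for 16 genes, with circles for Col-0, squares for *35S-COLDAIR*, a line joining the 2 replicates of a genotype and each vertical axis starting at 0. Morning clock, expansin, iron and sulfate genes were lower in replicate 2, evening clock, wall and sugar starvation genes higher, and *PIF4* stayed between 120 and 122 FPKM.

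Other growth lists gave at most 3 calls in a direction. Of the auxin-induced SAUR genes, 59 of 79 were tested, with 2 higher, 2 lower and a median of 0.02, a share of calls near that of all genes (2.22% and 2.07%). The Aux/IAA list, matched by name, held Aux/IAA repressors of auxin signalling and also *ARF19*, *MP* and *NPH4*, which encode auxin response factors. Of its 32 members 26 were tested, and the 3 higher ones were *SHY2* at 0.82, *IAA19* at 0.57 and *IAA2* at 0.42. None was lower, and the median was 0.12. Both replicate 2 libraries were above both replicate 1 libraries in 12 of the 26, beside 22.8% of all genes, and below in 2. Of 15 tested hormone feedback genes 2 were higher, *BR6OX2*, an enzyme of brassinosteroid synthesis, at 0.73 and *ARR4*, a cytokinin response regulator, at 0.46. None was lower, and the median was 0.31. In 10 of the 15, both replicate 2 libraries were above both replicate 1 libraries, beside 22.8% of all genes. None of 10 cell cycle genes passed, with a median of -0.14. Both replicate 2 libraries were below both replicate 1 libraries in 5 of the 10, beside 25.2% of all genes.

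Of the genes induced by iron shortage, 11 were lower in replicate 2. Plants short of iron induce a group of bHLH factors, the ferric reductase *FRO2* and the transporter *IRT1*. Of 28 members of the iron deficiency list 25 were tested, 11 were lower and none higher, beside 2.07% and 2.22% of all genes, 5 were above 0, the median was -0.57, and 6 were at least 2-fold lower in both genotypes, beside 0.258% of all genes. AT2G30766, for an uncharacterized protein, stood at 218 and 49.3 FPKM for Col-0, with 122 and 42.5 FPKM for *35S-COLDAIR*. Both replicate 1 libraries were above both replicate 2 libraries, a difference of -1.81 (standard error 0.15, limma adjusted p = 0.0108). AT1G47400 and AT1G47395, also for uncharacterized proteins, were at -1.56 and -1.18.

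*BHLH39* stood at 18.0 and 6.92 FPKM for Col-0, with 6.12 and 1.70 FPKM for *35S-COLDAIR*, a difference of -1.33 (standard error 0.11, limma adjusted p = 0.0108). *BHLH100* stood at 36.2 and 16.1 FPKM, with 11.2 and 4.95 FPKM for *35S-COLDAIR*, a difference of -1.08. In these genes the genotypes also differed, so replicate 1 of *35S-COLDAIR* was below replicate 2 of Col-0 and the replicate groups overlapped, although each genotype was lower in replicate 2. *BHLH38* and *BHLH101* had the same order of libraries, with differences of -1.04 and -0.83.

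*IRT1* stood at 17.2 and 7.43 FPKM for Col-0, with 11.9 and 5.19 FPKM for *35S-COLDAIR*, a difference of -1.08 (limma adjusted p = 0.0112), and here the replicate groups did not overlap. *PYE*, a bHLH regulator of the response, stood at 23.5 and 8.10 FPKM, with 16.2 and 8.11 FPKM for *35S-COLDAIR*, a difference of -1.17. The iron sensor *BTS* (-0.46) and the transporter *OPT3* (-0.81) were lower too. *FRU*, the bHLH factor that partners the group, stood at 3.84 and 3.83 FPKM for Col-0, with 2.88 and 3.64 FPKM for *35S-COLDAIR*, a difference of 0.13 that did not pass. *FRO2* was at -0.79 (limma adjusted p = 0.0629). Of 9 iron storage genes none passed, with *FER1*, for ferritin, at 0.23.

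Sulfate genes were lower in part. Of 16 members 15 were tested, 4 were lower and none higher, beside 2.07% and 2.22% of all genes. The median was -0.34, with -0.05 in Col-0 and -0.65 in *35S-COLDAIR*. *LSU3*, induced when sulfur is short, stood at 21.0 and 9.18 FPKM for Col-0, with 13.7 and 3.74 FPKM for *35S-COLDAIR*. Both replicate 1 libraries were above both replicate 2 libraries, a difference of -1.37 (standard error 0.15, limma adjusted p = 0.0174). *LSU1* (-1.16), *LSU2* (-0.96) and *APR1*, an enzyme of sulfate reduction (-0.81), were lower as well. *SDI1* fell short of the threshold, at 9.55 and 6.59 FPKM for Col-0, with 14.4 and 3.57 FPKM for *35S-COLDAIR*. The list of genes for sulfur-rich glucosinolates had 5 of 17 lower and none higher, with the enzyme gene *CYP79F1* at -0.78 and its regulators *MYB28* and *MYB29* at -0.66 and -0.52.

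Phosphate genes had 2 of 20 tested lower and none higher, beside 2.07% and 2.22% of all genes. The median was -0.13, with -0.04 in Col-0 and -0.28 in *35S-COLDAIR*. *PAP17*, an acid phosphatase, stood at 25.7 and 13.6 FPKM for Col-0, with 22.3 and 8.51 FPKM for *35S-COLDAIR*, a difference of -1.08 (limma adjusted p = 0.0206), and *SRG3* was at -0.83. *SPX1*, a sensor of phosphate state, was at -0.90 (limma adjusted p = 0.0611) and passed with the columns centred or quantile normalized (0.04 and 0.0309). None of 19 tested nitrate genes passed, with a median of 0.10, and the nitrate reductase genes *NIA1* and *NIA2* were at 0.07 and 0.16. None of 12 copper or 6 zinc genes passed. The copper-responsive superoxide dismutase gene *FSD1* was at 82.9 FPKM in Col-0 replicate 1 and between 350 and 550 FPKM in the other 3 libraries.

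On the list of sugar starvation and related genes, not all of which need be induced by low sugar, 6 were higher in replicate 2. Of 19 members 18 were tested, 6 were higher and 1 lower, beside 2.22% and 2.07% of all genes, and the median was 0.43. *DIN10*, a raffinose synthase family gene induced in the dark, stood at 62.4 and 249.6 FPKM for Col-0, with 83.6 and 285 FPKM for *35S-COLDAIR*. Both replicate 2 libraries were far above both replicate 1 libraries, a difference of 1.87 (standard error 0.07, limma adjusted p = 0.00459). *ASN1*, the dark-induced asparagine synthetase, stood at 120 and 248 FPKM, with 171 and 286 FPKM for *35S-COLDAIR*, a difference of 0.89 (limma adjusted p = 0.0141). *DRM2* (0.84), the hexose transporter *STP1* (0.81), *BGAL4* (0.49) and *TPS10* (0.47) were also higher. The lower gene was *BAM3*, a starch-degrading amylase, at 25.7 and 14.4 FPKM for Col-0, with 33.1 and 13.9 FPKM for *35S-COLDAIR*, a difference of -0.99. *SEN1* was at 0.42 and did not pass.

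**Figure D4:**
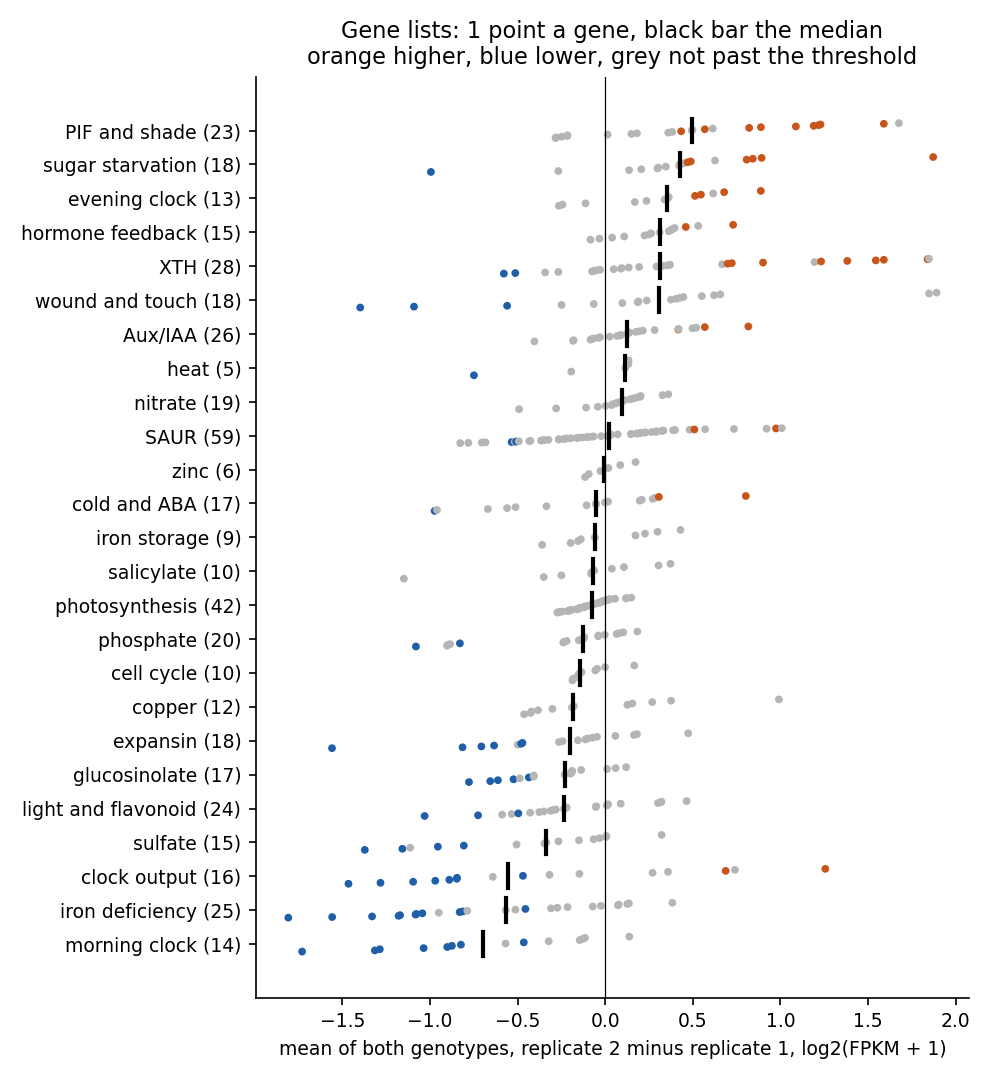
Mean difference of both genotypes, log2(FPKM + 1) in replicate 2 minus replicate 1, for each tested gene of 25 lists, with the number of tested genes in brackets, a black bar at the list median, and orange and blue points for genes higher and lower past the limma threshold. The medians run from -0.70 for the morning clock to 0.49 for the PIF and shade list.

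Stress lists were mixed. Of 18 tested wound and touch genes 3 were lower and none higher, beside 2.07% and 2.22% of all genes, with a median of 0.31, at 0.52 in Col-0 and 0.08 in *35S-COLDAIR*. The lower ones were the early-response genes *WRKY40* (-1.40) and *WRKY33* (-1.09) and the jasmonate regulator *MYC2* (-0.56). *WRKY40* stood at 16.3 and 4.54 FPKM for Col-0, with 9.97 and 3.93 FPKM for *35S-COLDAIR*. *JAZ7*, a jasmonate repressor, stood at 1.30 and 4.41 FPKM, with 0.219 and 6.12 FPKM for *35S-COLDAIR*, a difference of 1.89 that missed the threshold (limma adjusted p = 0.0505). Of 17 tested cold and abscisic acid genes *COR15B* (0.80) and *KIN2* (0.31) were higher and *ZAT12* (-0.97) lower. Of 5 heat genes *MBF1C* (-0.75) was lower, and of 10 salicylate genes none passed.

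Several of the largest differences belonged to genes on no list. AT2G15020, for an uncharacterized protein, stood at 16.5 and 1.95 FPKM for Col-0, with 12.5 and 1.47 FPKM for *35S-COLDAIR*, a difference of -2.51 (standard error 0.12, limma adjusted p = 0.00603). *ZPR2*, of the LITTLE ZIPPER family, was at -1.59, the senescence regulator *NAP* at -1.48 and the heat shock factor *HSFA6A* at -1.51. The lower genes AT5G20790 (-1.71), AT1G13609 (-1.68, defensin-like) and AT4G24700 (-1.66) have no further description in the reference. Higher were AT1G50040 (2.45), AT4G08555 (2.06), AT1G72416 (2.03, with a DnaJ domain), *MUG4* (1.80), AT3G07273 (1.75), *BT4* (1.74, with BTB and TAZ domains) and AT3G21330 (1.69, a bHLH protein). AT1G50040 stood at 0.504 and 14.2 FPKM for Col-0, with 5.38 and 18.0 FPKM for *35S-COLDAIR*. *MUG4* was near 0 in replicate 1, at 0.00644 and 2.91 FPKM for Col-0, with 0.000311 and 2.14 FPKM for *35S-COLDAIR*. AT2G36030, at -1.90, stood at 82.8 and 12.6 FPKM for Col-0, with 96.5 and 41.9 FPKM for *35S-COLDAIR*. Chosen after its value was seen, *VTC2*, an enzyme of ascorbate synthesis, stood at 161 and 74.5 FPKM, with 137 and 61.5 FPKM for *35S-COLDAIR*, a difference of -1.13.

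Some of the extreme values lay in neighbouring annotations. AT5G09672 stood at 0.131 and 18.2 FPKM for Col-0, with 0.148 and 19.2 FPKM for *35S-COLDAIR*, the largest difference among genes above 0 everywhere, while AT5G09670, next to it in the tables, stood at 18.8 and 4.89 FPKM, with 17.0 and 5.74 FPKM for *35S-COLDAIR*. The pair thus differed in opposite directions, by 4.11 and -1.58. AT1G29951 stood at 5.25 and 0.145 FPKM for Col-0, with 4.69 and 0.0215 FPKM for *35S-COLDAIR*, and its neighbour AT1G29950 at 21.9 and 27.4 FPKM, with 21.8 and 26.4 FPKM for *35S-COLDAIR*. AT4G19112 was lower, at -1.64, and its neighbour AT4G19110 stood at 68.8 and 80.6 FPKM, with 70.9 and 86.9 FPKM for *35S-COLDAIR*. AT3G07273, named above at 1.75, overlaps AT3G07280 on the same strand. AT3G07280 stood at 7.46 and 8.27 FPKM for Col-0, with 6.70 and 8.97 FPKM for *35S-COLDAIR*. AT5G09672, AT1G29951 and AT4G19112 have no gene in the reference, and how reads were divided between neighbours was not tested.

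Exact zeros also split by table. Of all 33854 genes, 10 were listed at 0 in both replicate 1 libraries and at 1 FPKM or more in both replicate 2 libraries. In 6 genes it was the reverse. These counts include genes below the filter. AT2G11891 was listed at 167 FPKM in both replicate 1 libraries and at 0 in both replicate 2 libraries. *MIR169m* was listed at 0 in both replicate 1 libraries and at 13.1 FPKM for Col-0 and 21.7 FPKM for *35S-COLDAIR* in replicate 2, and *CLE1*, for a signalling peptide, at 0 and then at 16.7 and 6.91 FPKM. A listed 0 can be a failed estimate, so no fold is given. Without strand information, reads of *APR1*, *ASN1*, *BAM3*, *BGAL4*, *BHLH101*, *BHLH38*, *BT4*, *CAB1*, *CKX5*, *COL2*, *COR15B*, *DIN10*, *EXLA1*, *FER1*, *FKF1*, *FLC*, *GATL6*, *LKP2*, *LNK1*, *LNK2*, *LNK3*, *LUX*, *MBF1C*, *MYC2*, *PAP17*, *RVE1*, *SHY2*, *SPA3*, *SPA4*, *SRG3*, *STH*, *STO*, *STP1*, *WRKY33*, *WRKY40*, *XTH15*, *XYL4*, AT1G48100, AT2G30766, AT2G36030 and AT4G24700 cannot be told from those of a gene annotated on the opposite strand at the same place. AT5G64572, opposite *XYL4*, stood at 27.5 and 63.0 FPKM for Col-0, with 30.9 and 82.4 FPKM for *35S-COLDAIR*.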

How the data were processed

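Poly-A RNA of 2 Col-0 and 2 *35S-COLDAIR* seedling samples was sequenced. The authors deposited 2 tables of FPKM values, each with 1 row per gene and the 2 libraries of a replicate number. The methods of the study name TopHat 2.1.0 and cuffdiff 2.0.1, and the submitters' processing notes name STAR 2.5.2b, Cuffdiff and TAIR10, so the aligner is not settled. The tables say neither how they were normalized nor whether this was done jointly, and hold no read counts, so depth and counting error are unknown and no count test was run. Of 33854 identifiers 33379 matched the TAIR10.1 reference, which gave names and positions. The upstream stretch of the remaining called evening gene is not reported here.

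Genes averaging 1 FPKM or more were fitted as log2(FPKM + 1) with limma 3.58.1 in R 4.3.3 (genotype and replicate number as terms, eBayes with a trend over the mean level, two-sided, Benjamini-Hochberg, threshold 0.05), which was tested on simulated data. An exact permutation test of 2 libraries against 2 cannot go below p = 0.333. Members and the 29 gene lists were chosen with earlier results of these data known, so no list was tested, and lists are described by counts and medians. The median over all tested genes is given once, with the morning clock list, and serves for every list. Lists can share members, and a shared gene counts in each of its lists. Named were the 15 largest differences per direction among called genes above 0 in every library and of the same sign in both genotypes, list members at least 2-fold apart in both genotypes, and core members of the lists. Other members of the lists, and genes on no list where so stated, were named after their values were seen. Other pseudocounts, filters, scalings and designs, and fits without each library, were tried.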

Additional observations from a re-analysis of the deposited data

Results flagged for a closer look

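In a few genes the genotypes went in opposite directions between replicates, each by comparison of 1 library with 1 library, and the difference between the genotypes was not tested. *IPS1*, a phosphate starvation RNA, stood at 2.04 FPKM (replicate 1) and 4.43 FPKM (replicate 2) for Col-0, with 7.97 and 2.69 FPKM for *35S-COLDAIR*, differences of 0.84 and -1.28. The salicylate-induced defence genes *PR1* and *BGL2*, a glucanase, shared a direction. *PR1* stood at 0.773 and 4.90 FPKM for Col-0, with 1.88 and 0.320 FPKM for *35S-COLDAIR*, differences of 1.73 and -1.13, and *BGL2* had differences of 1.39 and -1.18. The defensin gene *PDF1.3* went the other way, with -2.10 and 1.79, and its reads may be split with near-identical relatives. *NF-YC13*, a subunit of a CCAAT-binding factor, had differences of 1.12 and -1.12. AT5G45430 was at 0.960 FPKM in Col-0 replicate 1 and between 12.6 and 36.6 FPKM in the other 3 libraries, differences of 4.26 and -1.28. Except *IPS1*, these genes were chosen because their differences were opposite.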

How the results depend on the processing

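None of the 57 called genes among the 76 named changed sign under any of the alternatives run for it. Of the others 5 did, all when 1 library was left out and the genotype block with it: *FER1* (-0.11 without Col-0 replicate 1), *NIA1* (-0.10 and -0.067 without *35S-COLDAIR* replicates 1 and 2), *RBCS1A* (0.0022 without Col-0 replicate 2), *IPS1* (0.56 and 0.059 without *35S-COLDAIR* replicates 1 and 2) and *FLC* (1.73 without Col-0 replicate 2 and 1.57 without *35S-COLDAIR* replicate 1, where the genotypes no longer balance). The counts past the threshold did not hold. Against 422 higher and 394 lower genes, the limma fit gave 26 and 15 with no filter on low values, 107 and 71 without the genotype block, and 1 and 2 without the variance trend, where 3161 genes still had an unadjusted p under 0.05. Leaving out 1 library, without the block since 3 libraries leave it no residual degree of freedom and with the lone library taken to vary like the others, gave 0 to 171 higher and 1 to 70 lower genes (4 and 8 without Col-0 replicate 1), and 1501 to 3328 genes with an unadjusted p under 0.05. Only the fit without *35S-COLDAIR* replicate 1 kept more than 3 of the 816 calls, with 173. The other alternatives stayed within 1.5 times of the counts, and quantile normalization and median centring kept all 816. Of the named genes, 56 lost their call without the trend and 33 without the genotype block. The genes apart in both genotypes numbered 267 and 218 at a 1.5-fold limit, in place of 83 and 49 at 2-fold, and 80 were lower with a pseudocount of 0.1 FPKM. The correlation across genes was 0.499 without genes listed at 0. No paired analysis was possible because the replicate number is itself the contrast, so a replicate block would remove it, and the genotype served as the block.

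Each difference within a genotype rests on 1 library against 1 library, and depth is not given. Replicate number, table and hour of harvest cannot be told apart, so the lists describe what differed and not what made it differ. Low genes and genes listed at 0 carry errors that the tables do not show.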
